A study of Homo sapiens with 9 samples.

Results

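To compare decitabine with hemin as inducers of erythroid features in K562 cells, the array of cells treated with 100 nM DAC was set directly against the arrays of cells treated with 25 µM and 50 µM hemin. These are 3 of the 9 Affymetrix expression arrays of the series, taken by their titles. A gene was counted as different only when its DAC value lay beyond the values of both hemin arrays. All 9890 genes measured in K562 cells were compared in this way.

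K562 is a cell line from a myeloid leukemia that can take on erythroid or megakaryocytic features. DAC (decitabine) was given in 3 pulses of 24 hours, with harvest 144 hours after the first pulse. Hemin was added to the medium at 25 or 50 µM, for a time that none of the sources used here states. Agent and time of harvest therefore cannot be told apart. The shared treatment protocol names 50 µM hemin alone, and doses were taken from the titles. Besides these, 2 untreated K562 arrays served as a background, and 1 HEL array with 20 nM DAC, with its untreated HEL array, is given beside some values. HEL is a further myeloid leukemia line. A K562 array with 5 nM PMA for 48 hours entered the filter on low values and the fit across genes, and 279 of the 9890 genes reached the minimum level in that array alone. All cultures were grown in RPMI1640 with serum, and no label says whether the 2 untreated arrays came from separate cultures. The DAC group holds 1 array, so the spread of DAC-treated cells was not measured.

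Decitabine is a cytosine analog that is built into DNA during replication and traps DNA methyltransferases, so that methylation at CG positions is lost over the next divisions. Hemin is the oxidized, iron-containing form of heme. It is taken up by cells, lifts the repression of globin and other genes by the heme-binding factor BACH1, and is broken down by heme oxygenase, and it also activates NRF2, the main factor of the antioxidant response. A maturing red cell fills with hemoglobin, makes heme through a chain of enzymes that starts with ALAS2, and builds a membrane skeleton around the anion exchanger band 3 (SLC4A1), under the control of GATA1 and KLF1.

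Upstream sequences of 6 genes on which the comparison turns are shown, as the 250 bases before the RefSeq start (GRCh38.p14), 5' to 3' on the strand of the gene. ALOX12 and GCNA are the genes farthest above hemin with DAC, and capitals mark each CG, the site that DNA methyltransferases modify. EPB42 and ALAS2 are a membrane and a heme synthesis gene that hold a match. Capitals mark AGATAA or its complement, the letters that GATA factors bind. ME1 and GCLM are antioxidant genes below hemin that hold a match. Capitals mark TGACNNNGC or its complement, the core of the antioxidant response element.
ALOX12, chr17:6995799-6996048, plus strand: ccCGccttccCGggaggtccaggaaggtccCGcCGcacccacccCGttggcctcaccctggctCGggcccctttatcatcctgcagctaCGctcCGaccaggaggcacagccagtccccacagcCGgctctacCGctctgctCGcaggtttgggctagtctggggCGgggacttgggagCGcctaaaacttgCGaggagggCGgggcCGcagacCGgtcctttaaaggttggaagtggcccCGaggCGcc
GCNA, chrX:71578187-71578436, plus strand: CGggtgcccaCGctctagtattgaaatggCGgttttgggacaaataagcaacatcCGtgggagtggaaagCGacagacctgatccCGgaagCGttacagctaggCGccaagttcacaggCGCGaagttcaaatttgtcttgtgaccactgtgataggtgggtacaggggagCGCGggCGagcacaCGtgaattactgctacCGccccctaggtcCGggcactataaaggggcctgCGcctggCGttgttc
EPB42, chr15:43221019-43221268, minus strand: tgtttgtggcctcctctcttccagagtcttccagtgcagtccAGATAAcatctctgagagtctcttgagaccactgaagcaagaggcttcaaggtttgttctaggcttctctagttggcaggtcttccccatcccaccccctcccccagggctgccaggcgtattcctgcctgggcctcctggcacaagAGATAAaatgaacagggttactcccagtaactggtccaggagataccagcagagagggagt
ALAS2, chrX:55030978-55031227, minus strand: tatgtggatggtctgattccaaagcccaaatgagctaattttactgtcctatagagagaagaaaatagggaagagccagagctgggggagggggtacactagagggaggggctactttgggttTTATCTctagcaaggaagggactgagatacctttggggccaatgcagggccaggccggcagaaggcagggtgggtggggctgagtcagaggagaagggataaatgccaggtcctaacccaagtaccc
ME1, chr6:83431052-83431301, minus strand: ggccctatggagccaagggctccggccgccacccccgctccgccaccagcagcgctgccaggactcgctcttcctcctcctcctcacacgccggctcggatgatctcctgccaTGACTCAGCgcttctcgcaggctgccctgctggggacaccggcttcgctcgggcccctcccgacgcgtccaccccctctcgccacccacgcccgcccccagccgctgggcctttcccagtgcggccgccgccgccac
GCLM, chr1:93909431-93909680, minus strand: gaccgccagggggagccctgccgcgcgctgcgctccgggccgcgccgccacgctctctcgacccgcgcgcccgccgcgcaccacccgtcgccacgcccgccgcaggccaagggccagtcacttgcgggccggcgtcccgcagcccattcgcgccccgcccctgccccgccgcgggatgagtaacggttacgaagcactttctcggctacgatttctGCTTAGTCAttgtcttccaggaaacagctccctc
The windows of ALOX12 and GCNA hold 19 and 18 CG, against a median of 11 over all 35116 windows of this length. Both counts lie under the median of 23 CG for the genes tested that had a window. AGATAA, on either strand, occurs in 9.17% of all windows and TGACNNNGC in 10.9%. Of the 1020 genes with DAC above both hemin arrays, 809 had a window, and their median was 25 CG, against 22 CG for the 730 of 874 genes with DAC below and 23 CG for the 8219 genes tested that had a window. AGATAA was found for 7.42% of the higher genes, 8.63% of the lower genes and 6.74% of the genes tested. TGACNNNGC was found for 17.2% of the higher genes and 16.1% of the genes tested, and for the lower genes the share was just under the latter. This motif therefore did not set the lower genes apart. Of the 9 lower NRF2 targets that had a window, 33.3% held it, and ME1 and GCLM were taken from those with a match. A match is a description of the letters and not evidence of binding or of methylation, which these arrays did not measure.

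The arrays had median log2 values between 6.67 and 6.78, as is usual once arrays are normalized together. Untreated array 1 lay nearer to the DAC array (correlation over the 9890 genes tested 0.951, against 0.912 for untreated 2). Untreated array 2 lay nearer to 25 µM hemin (0.976, against 0.963 for untreated 1), while 50 µM hemin had 0.936 with untreated 2 and 0.942 with untreated 1. Across the same genes the correlation of DAC with 25 and 50 µM hemin was 0.926 and 0.945, and that of the 2 hemin arrays with each other was 0.969. Over the 9890 genes, the difference of DAC from the hemin mean and the difference of untreated 1 from untreated 2, which share no array, had a Pearson correlation of 0.519 and a Spearman correlation of 0.523. Genes are not independent replicates, and this is given as a description. No label names a batch, and the part of such a split in the results was not tested. For this reason the counts are also given for genes whose DAC value lay over 1.5-fold beyond both untreated arrays as well.

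**Figure D1:**
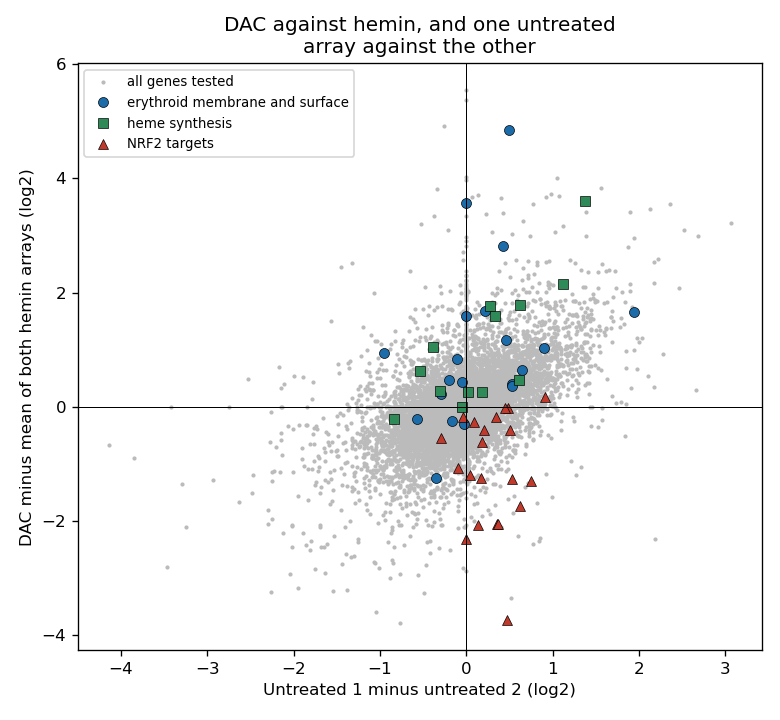
Difference of the DAC array from the mean of both hemin arrays (vertical axis, log2) against the difference of untreated 1 from untreated 2 (horizontal axis, log2), 1 point per gene, values under 5 set to 5, with 3 gene lists in colour. The cloud of all genes is tilted (Pearson correlation 0.519), while most NRF2 targets (red triangles) lie below 0 on the vertical axis at small values on the horizontal axis.

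The DAC value lay more than 1.5-fold above both hemin arrays for 1020 genes (10.3% of those tested) and more than 1.5-fold below both for 874 (8.84%). For 2886 genes (29.2%) it lay within the range of the hemin arrays. The distance of a gene is the log2 gap between DAC and the nearer hemin array, with values under 5, which are close to background, set to 5. Of the genes above, 476 were over 2-fold and 87 over 4-fold beyond the nearer hemin array, against 302 and 41 of the genes below. Against a single dose the counts were larger, with 1642 higher and 1867 lower than 25 µM hemin, and 1545 higher and 1398 lower than 50 µM hemin. In these bulk samples, fewer cells of a type and less RNA per cell cannot be told apart. At the threshold, the nearest values inside and outside were 0.5856 and 0.5847 on the higher side, and -0.5851 and -0.5845 on the lower side.

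Set also against untreated cells, 441 genes (4.46%) lay above both hemin and both untreated arrays with DAC and 338 (3.42%) below all 4. These were 43.2% and 38.7% of the genes that differed from hemin. In 93 of the 1020 higher genes both hemin arrays lay more than 1.5-fold below both untreated arrays, and in 116 of the 874 lower genes they lay above. The untreated arrays differed from each other as well. Untreated 1 was over 1.5-fold above untreated 2 for 992 genes (10.0%) and below it for 1162 (11.7%), and among the 1020 higher genes these counts were 446 and 34. Among the 874 lower genes untreated 1 lay below untreated 2 for 323 and above it for 15. In lists described below, untreated 1 lay above untreated 2 for 4 of 13 heme synthesis, 3 of 20 membrane and 4 of 21 maturation genes. It did so for 6 of 18 erythroid transcription factors, 4 of 7 in the globin list and 3 of 21 NRF2 targets. It lay below untreated 2 for 1, 1, 1, 2, 0 and 0 members of these 6 lists.

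limma, fitted to the 6 K562 arrays, called 22 genes higher (0.222%) and 2 lower (0.0202%) with DAC than with hemin after Benjamini-Hochberg adjustment, with 1215 genes at an unadjusted p under 0.05. The fit has 2 residual degrees of freedom, from the hemin pair and the untreated pair, and with any 1 of these arrays left out it called 0 genes. Among the 24 called genes, 21 were under 5 in both hemin arrays, and 17 of the 22 higher ones reached 5 in the DAC array alone. A fitted difference from such background values is no measure of size, so their distances are given instead, as lower bounds. Their p-values rest largely on the spread of background values, so these are not given and the calls are no support. Over the order counts, 47 of the 1020 higher genes were kept through the DAC array alone and 9 of the 874 lower genes through hemin alone. All adjusted p below are from this limma fit, over all 9890 genes.

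Genes of heme synthesis mostly had higher values with DAC than with either dose of hemin. Of 13 measured genes of this list, 11 lay above both hemin arrays by any distance. By more than 1.5-fold, 7 lay above both hemin arrays and 0 below, beside 10.3% and 8.84% of all genes. The median difference from the hemin mean was 0.63 on the log2 scale, beside -0.02 over all genes tested. ALAS2, the erythroid form of the enzyme that starts heme synthesis, had 11.39 with DAC against 6.60 at 25 µM and 8.97 at 50 µM hemin, and 6.63 and 5.26 in untreated cells. Its DAC value stood 2.42 above the higher hemin array, and the hemin arrays themselves lay far apart. The limma difference was 3.60 (standard error 1.21, adjusted p = 0.389).

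The last step, insertion of iron into protoporphyrin by FECH, showed the same order with closer hemin values. FECH had 11.95 with DAC, 10.14 and 10.21 with 25 and 50 µM hemin, and 9.76 and 9.14 in untreated cells (difference 1.78, standard error 0.34, adjusted p = 0.277). SLC25A37, mitoferrin, which brings iron into the mitochondrion, had 13.70 with DAC against 11.27 and 11.84 with hemin, and 9 of its 10 probe sets called it higher. UROS, an enzyme of the middle of the pathway, had 9.21 with DAC, 7.32 and 7.56 with hemin, and 7.69 and 7.41 without treatment. Thus DAC lay above all 4 other arrays for ALAS2, FECH, SLC25A37 and UROS. Of these genes, FECH alone had both hemin arrays above both untreated arrays. The 25 µM hemin value lay within the untreated range for ALAS2 and for SLC25A37 (untreated 11.5 and 10.38), and the hemin arrays of UROS overlapped with the untreated ones. Next in size was PPOX, which oxidizes protoporphyrinogen, with a distance of 1.55, while UROD, which precedes CPOX in the pathway, stood at 13.11 with DAC, between 13.02 and 13.20 with hemin. Of the 7 higher genes, 5 were also above both untreated arrays.

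Red cell membrane and surface genes mostly lay above hemin as well. Of 20 measured, 11 were higher and 1, CD47, was lower with DAC, beside 10.3% and 8.84% of all genes. The median difference was 0.74. SLC4A1, the band 3 anion exchanger, had 11.34 with DAC against 5.40 at 25 µM and 7.57 at 50 µM hemin, and 6.24 and 5.74 in untreated cells (difference 4.86, standard error 0.99, adjusted p = 0.301). Its DAC value stood 3.77 above the nearer hemin array, although only 1 of its 2 probe sets was called. EPB42, protein 4.2, which binds band 3 to the skeleton, had 8.57 with DAC and stayed under 5 in all other K562 arrays, at 3.68 and 4.79 with hemin and 3.68 in each untreated array. Since its hemin values were under 5, the distance of 3.57 is a lower bound.

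RHD, the D antigen of the Rh blood group, had 10.16 with DAC, 7.05 and 7.62 with hemin, and 6.35 and 5.93 in untreated cells (difference 2.82, standard error 0.37, adjusted p = 0.192), and each of its 3 probe sets was called higher. RHD and RHCE are close copies, and probes may bind the RNA of both. AQP1, the water channel of the red cell, had 6.59 with DAC and was under 5 in both hemin and both untreated arrays, with 1 of its 2 probe sets called and a distance of 0.29 for their mean. The remaining higher members, SPTB, TMOD1, KEL, DMTN, SEMA7A, XK and ANK1, had distances of 1.17 or less. RHAG, the partner of the Rh proteins, was high in all these arrays, at 13.98 with DAC and 14.22 and 14.36 with hemin. DAC lay above both untreated arrays as well for 10 of the 11 higher members. CD47, a surface signal against phagocytosis, had 11.71 with DAC, 13.18 and 12.76 with hemin, and 12.83 and 13.18 without.

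Enzymes and transporters of late red cell maturation were divided. Of 21 measured, 7 were higher and 1 was lower with DAC, beside 10.3% and 8.84% of all genes. Of the 7, 6 were also above both untreated arrays, and the median difference of the list was 0.42. PKLR, the red cell and liver form of pyruvate kinase, had 12.67 with DAC against 8.70 and 9.55 with hemin and 9.28 and 6.92 in untreated cells, and its 3 probe sets were all called higher (difference 3.55, standard error 1.11, adjusted p = 0.367). CA1, the carbonic anhydrase that appears late in red cell maturation, had 9.84 with DAC and differed widely between the hemin doses, at 3.71 and 7.46, with 3.65 and 3.14 without treatment. TNS1, tensin 1, an adaptor between integrins and actin, had 7.98 with DAC and between 2.28 and 2.37 in both hemin and both untreated arrays. Its distance was at least 2.98, but with no filter on dim probe sets another probe set represents it, with a distance of 0.00.

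The globin list, which includes a chaperone and a noncoding RNA, had 1 of 7 higher and 2 lower, beside 10.3% and 8.84% of all genes. Of the globin genes themselves only HBD was called, and it was lower. The list median of untreated 1 minus untreated 2 was 1.63, beside 0.29 for DAC minus the hemin mean. AHSP, the chaperone of free alpha globin, was the member that lay more than 1.5-fold above hemin, and the DAC array alone carried it past the filter. It had 7.29 with DAC, 2.25 in both hemin arrays, and 2.44 and 2.25 in untreated cells, with a distance of at least 2.29. HBZ, the embryonic zeta globin, had 16.27 with DAC against 15.77 and 16.19 with hemin, and 14.71 and 12.05 without treatment. HBE1, the embryonic epsilon globin, had 15.17 with DAC, 14.55 and 14.83 with hemin, and 14.27 and 12.64 without. DAC thus stood 0.09 and 0.34 above the nearer hemin array for HBZ and HBE1, and 0.50 and 0.61 above the 25 µM array. The DAC value of HBZ was the highest in the table, and whether signals this high can still rise with the RNA was not tested.

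HBD, the delta globin, lay the other way. It had 10.49 with DAC against 12.22 at 25 µM and 13.38 at 50 µM hemin, with 10.20 and 8.01 in untreated cells (difference -2.31, standard error 1.10, adjusted p = 0.473). BGLT3, a noncoding RNA between the gamma and delta globin genes, had 6.95 with DAC, 8.48 and 9.26 with hemin, and 5.33 and 5.15 without. For both, DAC lay above the untreated arrays and below the hemin arrays. HBB, the adult beta globin, had 11.21 with DAC, between 10.41 and 11.36 with hemin, and 9.36 and 7.45 without. The alpha and gamma globins are measured by probe sets that are shared by near-identical copies. The 6 probe sets of HBA1 and HBA2 had distances of 0.11 to 0.37 above hemin and the 3 of HBG1 and HBG2 distances of 0.18 to 0.26, all under 1.5-fold, with DAC values of 15.2 to 15.6 and 15.7 to 15.9.

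**Figure D2:**
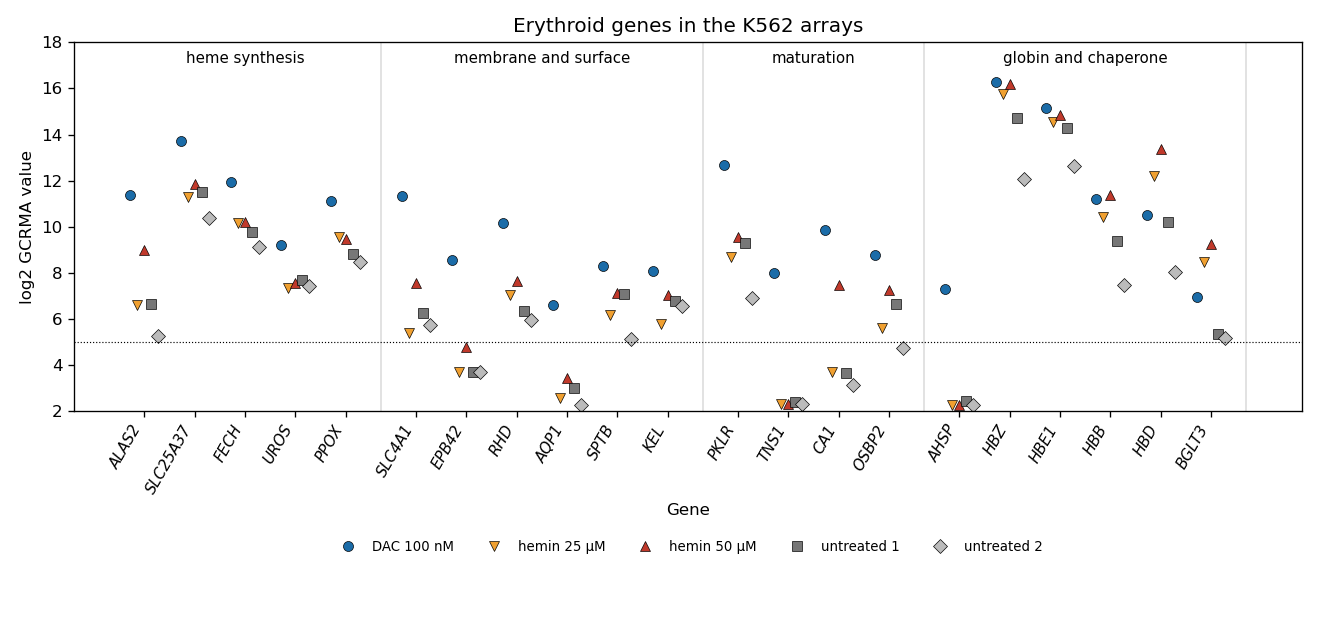
Log2 GCRMA value (vertical axis) of erythroid genes (horizontal axis) in the DAC array, the 25 and 50 µM hemin arrays and the 2 untreated K562 arrays, 1 point per array, with the minimum of 5 as a dotted line. DAC (blue) is the highest point for the heme synthesis, membrane and maturation genes shown, which were drawn from the members called higher with DAC. The members of these lists called lower, CD47 and GABARAPL1, and those not called are not shown. HBD and BGLT3 are highest with hemin.

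Among erythroid transcription factors and receptors, 7 of 18 were higher and 2 lower with DAC, beside 10.3% and 8.84% of all genes. The median difference was 0.50 (0.75 from 25 µM and 0.28 from 50 µM hemin). Untreated 1 was over 1.5-fold above untreated 2 for 6 of the 18 and below it for 2, beside 10.0% and 11.7% of all genes. ZFPM1, the cofactor of GATA1, had 9.50 with DAC, 7.72 and 7.52 with hemin, and 8.29 and 7.71 without. EPOR, the erythropoietin receptor, had 7.85 with DAC against 5.77 and 6.61 with hemin, and each of its 4 probe sets was called higher. GATA1 itself had 10.59 with DAC, 9.19 and 9.47 with hemin, and 10.42 and 9.72 in untreated cells, so that the DAC value was close to untreated 1 and the hemin values lay lowest. KLF1, which switches on adult globin and membrane genes, had 11.84 with DAC against 9.97 and 10.78 with hemin, and 10.96 and 9.58 without. Of the 7 higher genes, 3 were also above both untreated arrays, close to the 43.2% over all higher genes.

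BCL11A, a repressor of the gamma globin genes, had 4.69 with DAC, 6.94 and 6.84 with hemin, and 6.84 and 7.52 without treatment (difference -2.20, standard error 0.37, adjusted p = 0.235), with 2 of its 3 probe sets called. With the mean of its probe sets the distance was -0.49, under the threshold. MYB, a factor of immature blood cells that falls during maturation, had 10.22 with DAC, 11.70 and 11.29 with hemin, and 12.15 and 12.32 without. DAC was the lowest of these 5 arrays for both genes.

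Antioxidant genes controlled by NRF2 lay on the other side. Of 21 measured, 0 were more than 1.5-fold above hemin with DAC and 11 were below, beside 10.3% and 8.84% of all genes. The median difference was -1.07, beside -0.02 over all genes tested. NQO1, a quinone reductase, had 8.12 with DAC against 12.20 at 25 µM and 11.51 at 50 µM hemin, and 9.98 and 9.50 in untreated cells (difference -3.74, standard error 0.42, adjusted p = 0.149), with all 3 probe sets called lower. ME1, the malic enzyme that makes NADPH, had 8.93 with DAC against 11.08 and 10.93 with hemin, and 8.84 and 8.71 in untreated cells (difference -2.07, standard error 0.23, adjusted p = 0.144). For ME1 the DAC value thus lay just above both untreated arrays, whereas for NQO1 it lay below them.

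AKR1C2, an aldo-keto reductase, followed ME1, with 11.72 with DAC, 13.84 and 13.69 with hemin, and 11.65 and 11.28 without. OSGIN1, an oxidative stress-induced growth inhibitor, was under 5 with DAC and in both untreated arrays and had 7.84 and 6.80 with hemin. The other 7 lower members were AKR1C1, GSR, GCLM, SLC7A11, SRXN1, TXNRD1 and MAFG, of which AKR1C1 and AKR1C2 are close copies that probes may not separate. Their limma differences ran between -1.07 for MAFG and -2.06 for SLC7A11. The median of the list was 0.25 above the untreated mean with DAC and 1.14 above it with hemin. Of the 11 lower genes, 2 were also below both untreated arrays. HMOX1, heme oxygenase 1, was not analysed here.

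Heme breakdown and iron genes lay on both sides, with 3 of 15 higher and 1 lower, beside 10.3% and 8.84% of all genes. Of the 3, 2 were also above both untreated arrays, and the median difference of the list was -0.05. SLC40A1, ferroportin, the only known iron exporter of the cell, had 10.22 with DAC, 12.54 and 11.84 with hemin, and 11.29 and 11.31 without. The 3 other genes called lay above both hemin arrays. STEAP3, the ferrireductase of erythroid endosomes, had 8.95 with DAC against 6.08 and 7.64 with hemin and 7.70 and 6.32 without. TFR2, transferrin receptor 2, had 10.87 with DAC, 9.68 and 9.38 with hemin, and 10.29 and 10.20 without. BLVRB, biliverdin reductase B, had 13.88 with DAC against 12.82 and 13.02 with hemin. FTL, ferritin light chain, which is chosen here after its values were seen, differed from the hemin arrays by -0.32 and -0.22, at 14.73 with DAC.

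Of 18 heat shock genes, 1 was higher and 4 lower with DAC, beside 10.3% and 8.84% of all genes, and 1 of each was also beyond both untreated arrays. The median difference was -0.40 (-0.08 from 25 µM and -0.55 from 50 µM hemin). DNAJB4, a cochaperone, had 8.12 with DAC against 9.71 and 9.23 with hemin, and 7.30 and 6.96 in untreated cells. BAG3, a nucleotide exchange factor of HSP70, had 9.62 with DAC, 10.36 and 11.04 with hemin, and 9.39 and 9.38 without. CRYAB, a small heat shock protein, had 5.71 with DAC, 6.62 and 6.59 with hemin, and 4.65 and 4.61 without, and DNAJB6 had 8.17 with DAC, 9.55 and 9.37 with hemin, and 8.96 and 9.12 without. Except for DNAJB6, the DAC value of these 4 genes lay between the untreated and the hemin values. FKBP4, a cochaperone of HSP90, was the only higher member, with a distance of 0.60.

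**Figure D3:**
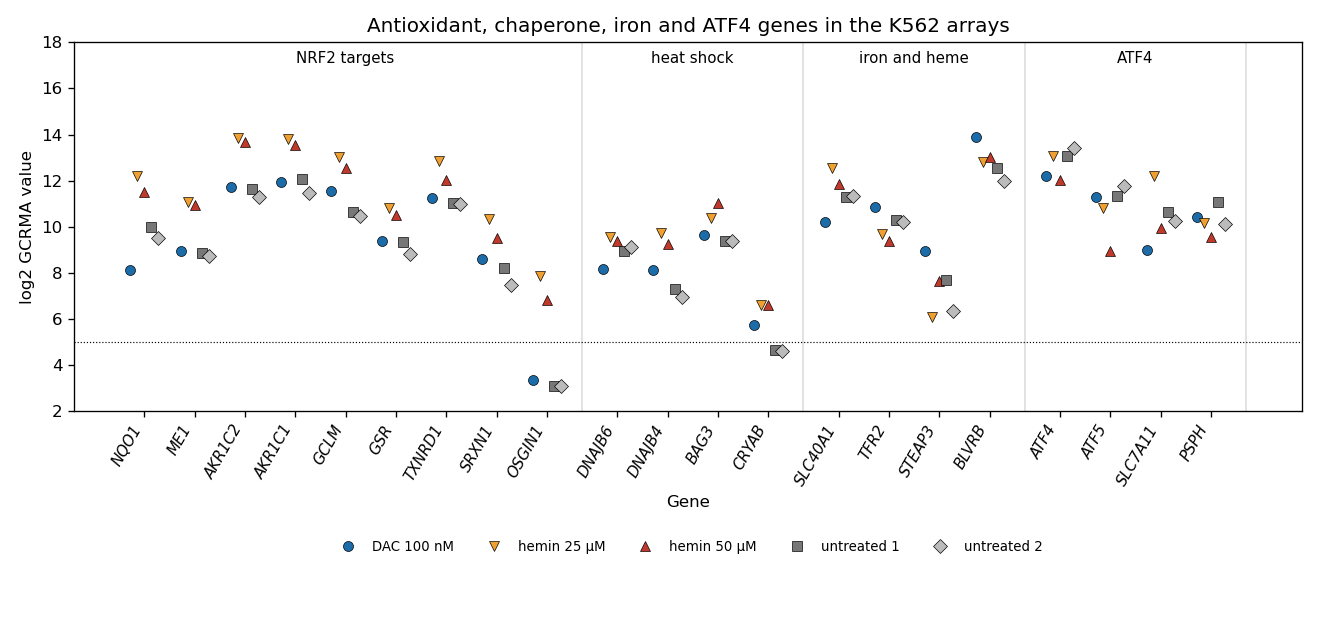
Log2 GCRMA value (vertical axis) of antioxidant, chaperone, iron and ATF4 genes (horizontal axis) in the DAC array, the 25 and 50 µM hemin arrays and the 2 untreated K562 arrays, 1 point per array. For ME1, AKR1C2 and AKR1C1 the DAC point lies at the untreated points and under both hemin points, and for SLC7A11 and ATF4 the hemin doses lie apart.

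Targets of ATF4, the factor of the amino acid and stress response, mostly lay between the 2 hemin doses with DAC. Of 25 measured, 22 had a DAC value within the range of the hemin arrays, against 29.2% of all genes tested, and 10 of the 25 were over 1.5-fold below 25 µM and over 1.5-fold above 50 µM hemin. The median difference of DAC was -1.31 from 25 µM and 0.61 from 50 µM hemin. From the untreated mean, the median of the list was -1.33 with DAC and -1.10 with the mean of both hemin doses, so DAC lay below untreated cells as well. ATF4 itself had 12.20 with DAC, 13.05 and 12.03 with hemin, and 13.07 and 13.41 without treatment. SLC7A11, the cystine transporter and a member of the NRF2 list too, was the only member below both doses, with 8.99 with DAC against 12.18 and 9.93 with hemin. ATF5 had 11.28 with DAC, 10.82 and 8.95 with hemin, and 11.34 and 11.74 without.

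Genes tied to DNA methylation and to the handling of decitabine were mostly near hemin. Of 27, 5 were higher and 1 lower, beside 10.3% and 8.84% of all genes, and 3 of the 5 were also above both untreated arrays. DNMT1, the maintenance methyltransferase that decitabine traps as a protein, had 12.31 with DAC, 12.22 and 12.10 with hemin, and 12.52 and 12.58 without (difference 0.15, standard error 0.22, adjusted p = 0.78). UHRF1, which brings DNMT1 to replicating DNA, had 12.38 with DAC against 10.65 and 11.03 with hemin, and 11.55 and 10.97 without. SLC29A1, a nucleoside transporter through which decitabine enters cells, had 10.04 with DAC, 7.54 and 8.27 with hemin, and 8.27 and 7.32 without. TET1, a dioxygenase that oxidizes methylcytosine, was lower, with 8.07 with DAC against 8.98 and 9.08 with hemin.

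Among 12 measured cancer-testis and germline genes, of 93 listed, 1 was higher with DAC and 0 lower, near the 10.3% over all genes tested. This was MAGEC2, at 8.57 with DAC against 7.73 and 7.96 with hemin, which was not 1.5-fold above both untreated arrays and whose distance of 0.62 fell to 0.56 with centring, under the threshold. Among 13 imprinted genes, 5 were higher and 0 lower, beside 10.3% and 8.84% of all genes, and 3 of the 5 were above both untreated arrays. MEST, an imprinted hydrolase gene, had 9.92 with DAC, 4.24 and 3.51 with hemin, and 5.80 and 6.06 without, with a distance of at least 4.92. MEG3, an imprinted noncoding RNA, had 9.14 with DAC against 6.97 and 6.40 with hemin, and 6.97 and 8.42 without. PLAGL1 had 9.49 with DAC and 9.48 in untreated 1, so that only its hemin values, 8.10 and 7.24, lay apart.

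Clustered histone genes mostly lay above hemin with DAC, 18 of 21 by any distance. By 1.5-fold, 11 of 21 were higher and 0 lower, beside 10.3% and 8.84% of all genes, with a median difference of 0.69. DAC was above both untreated arrays too for 10 of the 11. H2BC21 had 10.33 with DAC, 8.32 and 8.11 with hemin, and 8.67 and 8.98 without (difference 2.11, standard error 0.26, adjusted p = 0.178). H2AC8 had 9.34 with DAC against 7.18 and 7.46 with hemin, and 7.18 and 7.37 without. Histone genes are near-identical copies, so that probe sets may be shared among them. In the proliferation list, 6 of 38 were higher and 1 was lower, beside 10.3% and 8.84% of all genes, with a median difference of 0.37. Of the 6, 3 were also above both untreated arrays, beside 43.2% over all higher genes. UBE2C, a ubiquitin-conjugating enzyme of mitosis, had 7.14 with DAC and was under 5 in both hemin and both untreated arrays. MCM5, a subunit of the replicative helicase, was the lower member, with 11.18 with DAC, 13.15 and 12.45 with hemin, and 11.15 and 10.67 without.

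Interferon-stimulated genes were split, with 9 of 28 higher and 2 lower, beside 10.3% and 8.84% of all genes, and a median difference of 0.07. IFI27 had 8.98 with DAC and between 2.25 and 2.40 in both hemin and both untreated arrays, a distance of at least 3.98. ISG15, a ubiquitin-like protein, had 10.10 with DAC, 8.04 and 8.64 with hemin, and 8.37 and 8.80 without. PARP14 had 7.91 with DAC against 5.84 and 5.58 with hemin, and 6.77 in each untreated array. RSAD2, viperin, lay the other way, with 7.72 with DAC, 8.70 and 9.51 with hemin, and 6.41 and 7.79 without. DAC was above both untreated arrays as well for 8 of the 9 higher genes. Of 15 antigen presentation genes, 2, TAP1 and TAPBP, were higher and 0 lower, near the 10.3% over all genes, and 0 of the 2 lay above both untreated arrays too.

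Of 21 immediate early genes, 4 were higher and 3 lower, beside 10.3% and 8.84% of all genes, and 1 of the 4 and 0 of the 3 also lay beyond both untreated arrays. EGR1 had 12.57 with DAC against 10.97 and 10.42 with hemin, and 12.15 and 11.29 without. DUSP1, a phosphatase of MAP kinases, had 9.44 with DAC, 7.49 and 8.17 with hemin, and 7.68 and 7.61 without. Among 22 G1 genes, 5 were higher, 1 of them also above both untreated arrays, and 1 was lower, beside the same shares of all genes. CDK2 had 10.03 with DAC, 8.75 and 8.60 with hemin, and 10.51 and 9.06 without, and the lower one was MXD1, an antagonist of MYC, with 8.16 with DAC against 10.22 and 9.35 with hemin. Of the 6 genes that the study chose for qPCR, and reported as raised by hemin, 5 were measured, without CD36. Of these, 0 lay 1.5-fold beyond both doses. Their median difference from the untreated mean was -0.62 with hemin and -0.97 with DAC. The hemin value pools the 2 doses, which lay far apart for VEGFA and DNASE2. The methods also differ and the hemin time here is unknown, so these values stand beside the qPCR only as a description. The study further set its genes beside published hemin-treatment arrays and stated that the selected genes were found in the microarray data. FOS, a subunit of the AP-1 factor, had 5.56 with DAC, between 4.99 and 5.72 with hemin. PIM1, a kinase of cell survival, had 11.07 with DAC, between 11.67 and 10.74 with hemin. BCL6, a transcriptional repressor, had 6.37 with DAC against 7.23 and 6.80 with hemin.

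Single genes with the greatest distance above hemin came from several families. ALOX12, the platelet-type lipoxygenase, had 10.55 with DAC, 3.36 and 3.37 with hemin, and 3.73 and 3.36 without, a distance of at least 5.55. GCNA, a nuclear protein of germ cells, had 10.38 with DAC, 4.07 and 3.17 with hemin, and 3.26 and 4.47 without. LXN, latexin, an inhibitor of carboxypeptidases, had 9.03 with DAC and 2.35 to 2.71 in both hemin and both untreated arrays. These 3 genes were under 5 in each of the 4 other arrays compared. In HEL cells ALOX12 had 10.27 with 20 nM DAC and 10.35 without, LXN had 9.09 and 9.16, and GCNA was under 5 in both.

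OPTN, optineurin, an autophagy receptor, was the only 1 of the 22 higher limma calls that was above 5 with hemin, with 10.22 with DAC, 6.56 and 6.44 with hemin, and 7.10 and 6.96 without (difference 3.72, standard error 0.22, adjusted p = 0.0416). APLNR, the apelin receptor, had 8.81 with DAC, 4.79 and 4.45 with hemin, and 6.25 and 6.59 without. ACRBP, a proacrosin-binding protein, had 8.72 with DAC against 3.74 and 3.46 with hemin, and 5.98 and 4.15 without. TMEM158 had 10.80 with DAC, 7.28 and 6.65 with hemin, and 9.63 and 8.07 without. For APLNR and TMEM158 both hemin arrays lay below both untreated arrays.

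MT1X, a metallothionein, a small protein that binds zinc and copper, had 12.21 with DAC against 8.62 and 7.77 with hemin, and 10.64 and 9.59 without. Because of this gene the whole family was looked at after its values were seen. Each of the 7 metallothionein genes measured lay more than 1.5-fold above both hemin arrays with DAC, by 1.79 for MT1E to 3.58 for MT1X, and each was also above both untreated arrays. The median difference of the 7 from the untreated mean was 1.82 with DAC and -1.86 with hemin. MT2A had 13.03 with DAC, 10.19 and 9.10 with hemin, and 11.35 and 10.92 without. The metallothionein genes are close copies, so these are not 7 separate measurements.

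**Figure D4:**
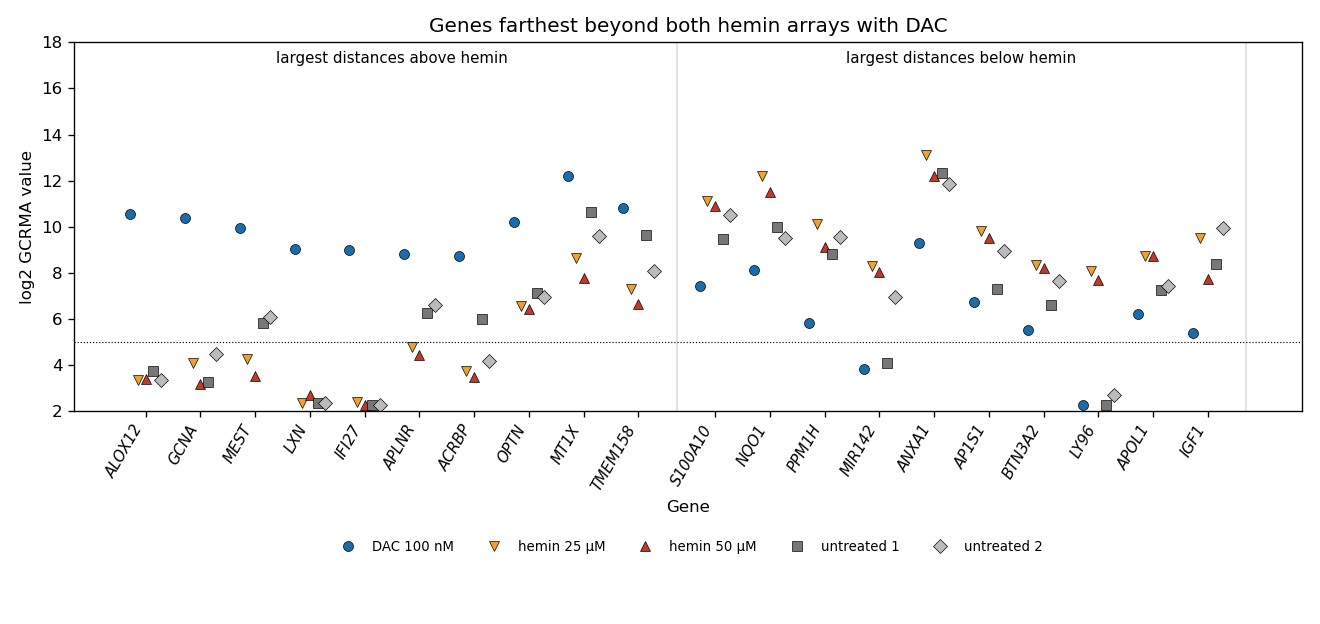
Log2 GCRMA value (vertical axis) of genes with the greatest distances of DAC above hemin and below hemin (horizontal axis), in the DAC array, the 25 and 50 µM hemin arrays and the 2 untreated K562 arrays, 1 point per array. ALOX12, GCNA, LXN and IFI27 are under 5 in all but the DAC array, and LY96 is under 5 in all but the hemin arrays.

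Below hemin, S100A10, an annexin partner, had 7.41 with DAC, 11.09 and 10.92 with hemin, and 9.47 and 10.52 without, the greatest distance (-3.51). ANXA1, annexin A1, had 9.29 with DAC, 13.10 and 12.20 with hemin, and 12.35 and 11.83 without. PPM1H, a phosphatase, had 5.82 with DAC, 10.13 and 9.10 with hemin, and 8.79 and 9.56 without. In these 3 genes DAC was the lowest array and the hemin arrays were within about the range of untreated cells or above it. CD53, a leukocyte tetraspanin, had 9.68 with DAC, 13.21 and 12.06 with hemin, and 12.50 and 13.06 without. IGF1 had 5.37 with DAC, 9.49 and 7.73 with hemin, and 8.38 and 9.92 without.

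LY96, the MD-2 coreceptor of TLR4, was under 5 in the DAC and both untreated arrays and had 8.08 and 7.68 with hemin. Its distance of -2.68 is a bound. The hemin arrays alone carried LY96 past the filter, so the limma call of it as lower is no support. GPR55, a lipid receptor, was the other lower call and was likewise kept through hemin alone. It had 2.35 with DAC, 6.03 and 6.25 with hemin, and 2.30 and 2.36 without. The probe set listed for MIR142, which measures the host transcript and not the mature miRNA, was under 5 with DAC, at 8.30 and 8.04 with hemin, and 4.06 and 6.95 without. AP1S1 had 6.73 with DAC, 9.81 and 9.49 with hemin, and 7.28 and 8.92 without, and TEX19, a germ cell gene, had 6.43 with DAC, 9.97 and 8.91 with hemin, and 6.76 and 7.63 without. DAC lay below the untreated arrays too for AP1S1 and TEX19. APOL1, apolipoprotein L1, had 6.20 with DAC against 8.71 in each hemin array, and BTN3A2, a butyrophilin, had 5.53 with DAC against 8.32 and 8.21 with hemin.

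In HEL cells, DAC at 20 nM was over 1.5-fold above untreated HEL cells for 311 of the same 9890 genes (3.14%) and below for 380 (3.84%). Of the 1020 genes higher with DAC than hemin in K562 cells, 74 (7.25%) were higher and 39 (3.82%) lower with DAC in HEL cells. Of the 874 lower genes, 70 (8.01%) were lower and 15 (1.72%) higher there. Doses and lines differ, so these counts are given side by side only. SLC4A1 had 5.06 with DAC and 4.79 without in HEL cells, EPB42 12.16 and 12.32, and ALAS2 10.16 and 9.66.

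Markers of the line and of other blood cells were looked at as a check of the label. Of the K562 markers, GATA1, KLF1, TAL1, TFRC, HBE1 and HBZ were at 9.19 or above in the DAC and both hemin arrays. Of 16 monocyte and granulocyte markers 2, LYZ and ITGAM, and of 13 lymphocyte markers 2, CD3D and CD3G, reached 5 in a K562 array, and none of these 4 lay 1.5-fold beyond both hemin arrays with DAC. LYZ had 6.34 with DAC, 8.19 and 6.62 with hemin, and 7.19 and 8.64 without. Of 23 megakaryocyte and platelet genes 11 were measured, with 0 higher and 0 lower. Of these 11, 4 were under 5 in the DAC and both hemin arrays and could not differ here. ITGA2B had 5.80 with DAC, 5.65 and 4.33 with hemin, and 7.29 and 7.86 without, and TUBB1, a platelet tubulin, had 8.66 with DAC, 8.67 and 9.23 with hemin, and 6.67 and 6.02 without.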

How the data were processed

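mRNA was measured on 9 Affymetrix expression arrays, 6 of K562 and 3 of HEL cells. The authors deposited log2 values made with GCRMA, which corrects background from probe sequences and normalizes the arrays together, with no version named in the sources used here. Of 27306 probe sets, 22858 had 1 gene symbol, 1164 several and 3284 none listed. Symbols came from the platform annotation, updated by gene identifier. Those with 1 gene and a value of at least 5 in at least 1 K562 array (17615) were kept, and the brightest per gene gave 9890 genes. Groups came from the sample titles. A call by array order needs DAC over 1.5-fold beyond the nearer hemin array after values under 5 were set to 5.

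limma 3.58.1 (R 4.3.3, lmFit and eBayes) was fitted to the unfloored values of the 6 K562 arrays in 4 groups (DAC 1, hemin 2, untreated 2, PMA 1), with the 2 hemin doses as 1 group, Benjamini-Hochberg adjustment and a threshold of 0.05. Because the doses differ, their difference counts as spread, and p-values measure only the spread between these arrays. Tested on simulated data (20 sets, 9890 genes, this comparison), the fit recovered 0.0746% of changes of 1, 0.0746% of 2 and 41.5% of 4 on the log2 scale, with 20 false calls in all. The number of arrays limits the precision.

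The comparison, gene lists and tests were chosen with earlier results of these data known. Named genes are the 12 with the largest distance above and below hemin with at least 8 on the higher side, all measured globin genes, the 4 of each of 22 lists with the largest distance, the genes the study chose for qPCR, and HMOX1, DNMT1, GATA1 and KLF1. One further gene is not reported here. The metallothioneins, GPR55, FTL, TAL1, TFRC, TUBB1 and the list members named beyond those 4 were chosen after their values were seen. Upstream sequences are from RefSeq (GRCh38.p14). Alternatives were other normalizations, filters, probe set summaries, thresholds and left-out arrays.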

Additional observations from a re-analysis of the deposited data

Results flagged for a closer look

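The DAC value lay more than 1.5-fold to opposite sides of the 2 hemin doses for 61 of 9890 genes (0.617%), and for 55 of these it was below 25 µM and above 50 µM hemin. Each dose has 1 array, so the difference between doses was not tested. VEGFA, a growth factor for blood vessels, had 11.16 with DAC, 12.87 and 10.27 with 25 and 50 µM hemin, and 12.63 and 13.21 in untreated cells, so that DAC differed by -1.71 from 25 µM and by 0.892 from 50 µM hemin. DNASE2, a lysosomal nuclease that digests expelled nuclei in erythroblastic islands, had 7.70 with DAC, 8.33 and 6.90 with hemin, and 8.72 and 8.67 without, with differences of -0.623 and 0.803. The ATF4 targets as a list had median differences of -1.313 from 25 µM and 0.608 from 50 µM hemin, and 10 of the 25 (40.0%) lay over 1.5-fold to opposite sides of the doses.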

How the results depend on the processing

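With 1 DAC array, its own spread is unknown, and the limma calls rest on the hemin pair and the untreated pair together. limma called 39 genes higher and 6 lower with each array centred on the median, 10 and 0 with no filter on dim probe sets, and 0 and 0 for the DAC and hemin arrays alone or with each dose its own group. Leaving out any hemin or untreated array gave 0 higher and 0 lower in each case, with 790 to 1293 genes at an unadjusted p under 0.05. The order counts were 476 higher and 302 lower at 2-fold, 3315 and 3689 at any distance, 1422 and 1455 against the hemin mean, and 1545 to 1642 higher and 1398 to 1867 lower without one hemin array, where a single array must be passed. Required also to lie beyond both untreated arrays, an alternative chosen after seeing the data, they were 441 and 338. The share of higher calls was 53.9%, and 52.6% to 55.5% under the other scalings.

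Without one hemin array, the list medians were 0.65 to 0.81 for heme synthesis, 0.70 to 0.74 for membrane genes, 0.39 to 0.55 for maturation genes, 0.59 to 0.98 for histone genes and -1.38 to -0.76 for NRF2 targets. Those of the globin list (-0.14 to 0.50) and of the ATF4 targets (-1.31 to 0.61) changed sign. The membrane median was 0.68 with quantile normalization, 0.64 with no filter and 0.89 with the mean of all probe sets, and the maturation median 0.28 with no filter. Of 83 named genes called by order, 79 stayed past 1.5-fold in the same direction under the alternatives other than the 2-fold threshold, at which 70 stayed. The others were AQP1 (0.29) and BCL11A (-0.49) with the mean of all probe sets, TNS1 (0.00) with no filter, where another probe set represents it, and MAGEC2 (0.56) with centring. The cause of the other changes was not tested. Some alternatives cannot lose a gene already called beyond the nearer hemin array. These are any distance, the hemin mean, 1 hemin array left out, and values under 5 left as deposited. Most named genes were also picked for a large distance, so the count of 79 is no measure of robustness. No paired analysis was possible because the DAC group has 1 array. On arrays, values near 5 limit what can be seen, and 18.4% of the higher and 8.24% of the lower genes had a DAC or hemin value under 5.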
